A study of Mus musculus with 8 samples.

Results

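Scaffold proteins hold the kinases of the RAF/MEK/ERK module together, and RAF modulators set how readily RAF passes the signal on. The 10 genes described here were chosen by name as 10 such scaffolds and modulators, out of 45706 genes in the count tables: Ksr1, Cnksr1, Iqgap1, Iqgap2, Arrb1, Arrb2, Lamtor2, Lamtor3, Shoc2 and Pebp1. The choice was made with earlier results of these data known, so counts over the 10 are no test of the list. All 10 passed the filter on low counts and were among the 14491 genes tested. RNA-Seq was performed on crypts, the glands at the base of the intestinal lining where its stem cells divide, freshly isolated by EDTA chelation from small intestine (SI) and colon (COL). The donors were 4 wild type mice of strain C57BL/6N, 2 female (mice 1 and 5 of the labels) and 2 male (mice 2 and 3), and each gave 1 SI and 1 COL library, numbered SI1 to SI4 and COL1 to COL4. No mouse carried a transgene or was treated, and their age is not given in the sources used here. The one crypt isolation protocol that the study describes, under its organoid cultures, takes the proximal stretch of SI, scrapes off its villi and uses EDTA at a lower concentration and for a shorter time than in COL. If it also served for these libraries, which is not stated, isolation and tissue cannot be told apart.

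In the ERK cascade, RAS recruits RAF to the membrane, RAF phosphorylates MEK and MEK phosphorylates ERK. KSR1, IQGAP1 and the beta-arrestins can each bind several of these kinases at once, CNKSR1 acts at the level of RAF, and LAMTOR3 (MP1) with its partner LAMTOR2 (p14) brings MEK and ERK to late endosomes. SHOC2 works with MRAS and a PP1 phosphatase to remove an inhibitory phosphate from RAF, while PEBP1 (RKIP) binds RAF and keeps it from MEK. In the intestinal epithelium the pathway is known for its part in proliferation and in the choice between secretory cell fates.

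Of the 10 genes, 5 were higher in SI crypts (Iqgap2, Ksr1, Arrb1, Cnksr1 and Shoc2) and 0 were higher in COL crypts. A gene was called where the edgeR q, the Benjamini-Hochberg adjusted p of the quasi-likelihood test over all genes tested, was under 0.05. Of all genes tested, 28.4% were called in either direction, 15.5% higher in SI and 12.9% higher in COL. At an unadjusted p-value below 0.05, 1 gene (Pebp1) lay toward COL by the same test, and limma-voom and DESeq2 also called 0 of the 10 higher in COL. For 4 of the 10, all SI libraries lay above all COL libraries in CPM, the read count relative to the TMM-scaled library size, as for 17.8% of all genes. COL was wholly above SI for 0 of the 10 and for 15.7% of all genes. The median log2 fold change of the 10 was 0.73, against -0.09 over all genes tested. Iqgap2, Ksr1 and Cnksr1 were called in each fit that left out 1 library, whereas Arrb1 was called in 2 and Shoc2 in 4 of these 8 fits. With the donor mouse as a block, edgeR called 3 of the 10 (Iqgap2, Ksr1 and Cnksr1), and limma-voom called all 5. Without the block, limma-voom called 4 of the 5 and not Arrb1.

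**Figure D1:**
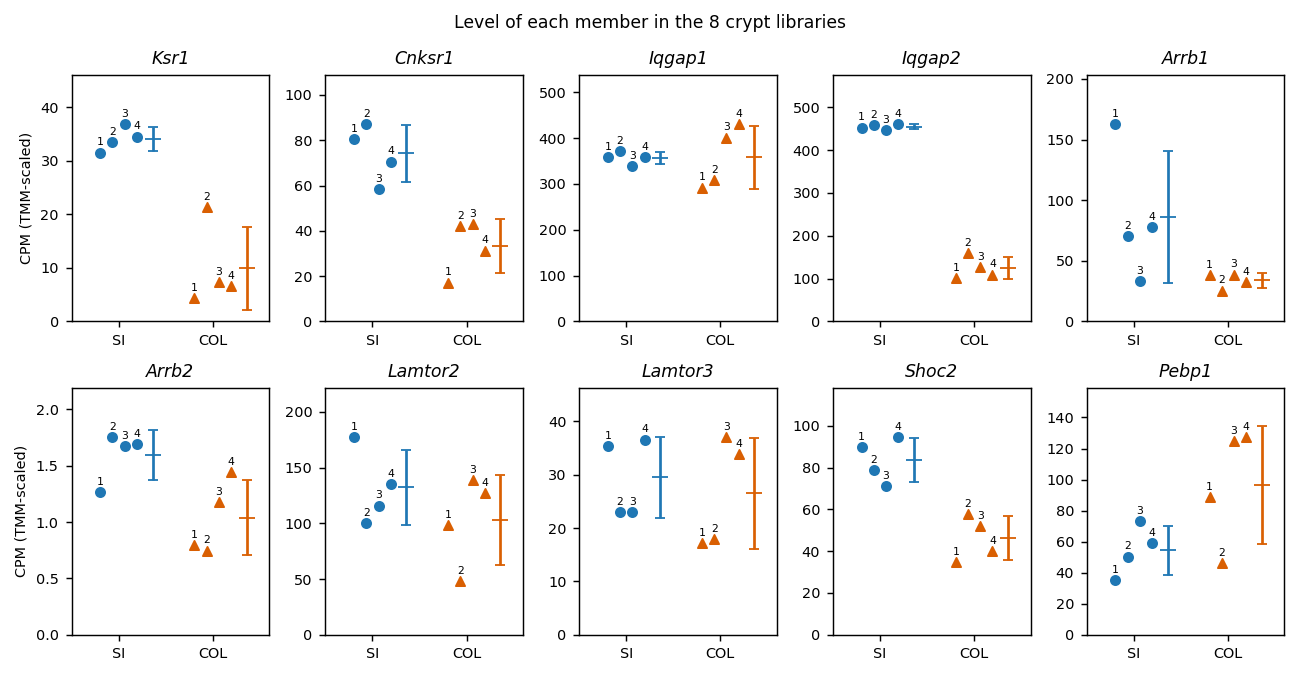
TMM-scaled CPM of the 10 genes in each SI (circles) and COL (triangles) library on linear axes from 0, with the replicate number above each point and the mean ± SD (n = 4) beside it. The 4 SI libraries of Iqgap2 sit between 448 and 461 CPM, above all COL libraries, while those of Iqgap1 sit among the COL libraries.

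The libraries held between 15969428 and 32908060 counts. Mitochondrial transcripts made up 22.7% to 50.8% of SI2, SI3, COL1 and COL2, highest in COL2, but 4.83% to 7.35% of the other libraries. In SI the high share fell on both males and the low share on both females. In COL each share held a female and a male. Fits within a share, given below, set SI1 and SI4 against COL3 and COL4 (low) or SI2 and SI3 against COL1 and COL2 (high). Only mouse 5 gave both tissues to the low share, and only mouse 2 to the high share. Their q values rest on fewer libraries than the test of all 8 and are not comparable with it. The summed CPM of 10 enterocyte markers, led by Apoa1, was 40785 to 105863 in SI and 847 to 3873 in COL. Of these, 7 were called higher in SI and 2 (Car4 and Aqp8) higher in COL. Such a sum follows its most abundant genes and does not measure the share of enterocytes. That of 8 T cell markers was 95.8 to 380.0 in SI and 6.40 to 57.0 in COL, with 5 of 7 tested T cell markers called higher in SI. The 8 macrophage or dendritic cell markers, led by Cd14, summed to 14.9 to 20.5 CPM in SI and 35.5 to 88.2 CPM in COL. Of the 6 tested, 1 was called higher in COL. The 6 fibroblast markers reached at most 6.77 CPM in any library, and the 5 epithelial markers lay at 3616 to 7412 CPM in SI and 2869 to 7534 CPM in COL. The 6 Paneth cell markers, among them Lyz1, summed to 558.5 to 3907 CPM in SI and to at most 95.9 CPM in COL. The part of cell makeup in the differences below was not tested, and in such bulk samples fewer cells of a type and less RNA per cell cannot be told apart.

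Ksr1 (ENSMUSG00000018334), the kinase-like scaffold of RAF, MEK and ERK, lies on the minus strand of chromosome 11 from 79013440 to 79146407 (GRCm38, the assembly of mm10). It was measured at 31.5, 33.5, 36.9 and 34.5 CPM in SI1 to SI4 and at 4.31, 21.3, 7.36 and 6.62 CPM in COL1 to COL4. The ranges did not overlap, and COL2 was the highest COL library. Ksr1 thus had a log2 fold change of 1.79 (standard error 0.44, 95% interval 0.82 to 2.77), with edgeR q = 0.0106. In mice 1, 2, 3 and 5 it was 2.85, 0.65, 2.32 and 2.37, so the difference had one direction in all 4 mice and was smallest in the mouse that gave COL2. Leaving out COL2 raised it to 2.501. Within the 4 libraries of low mitochondrial share it was 2.23 (edgeR q = 0.00215), and within the 4 of high share, COL2 among them, 1.38 (edgeR q = 0.185). Ksr1 was singled out by the study in these same crypts, so its call is no independent evidence of a direction. The study also reports more KSR1 protein in SI, by Western blot, which these libraries do not measure.

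RefSeq lists a pair of Ksr1 start sites, and both promoter windows (250 bases before to 50 after the start, GRCm38.p6) are shown because reads from either start add to the same Ksr1 count. Capitals mark matches to a CCAAT box (CCAAT), a GC box (GGGCGG), an AP-1 site (TGANTCA) or an ETS core (CCGGAAG) on either strand.
Ksr1, chr11:79146424-79146723, minus strand: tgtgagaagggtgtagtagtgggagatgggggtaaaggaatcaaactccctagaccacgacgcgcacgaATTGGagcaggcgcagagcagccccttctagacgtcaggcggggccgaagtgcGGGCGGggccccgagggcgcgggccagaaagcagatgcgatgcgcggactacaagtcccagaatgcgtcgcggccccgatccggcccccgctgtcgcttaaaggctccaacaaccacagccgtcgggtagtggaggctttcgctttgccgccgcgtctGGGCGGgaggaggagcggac
Ksr1, chr11:79059787-79060086, minus strand: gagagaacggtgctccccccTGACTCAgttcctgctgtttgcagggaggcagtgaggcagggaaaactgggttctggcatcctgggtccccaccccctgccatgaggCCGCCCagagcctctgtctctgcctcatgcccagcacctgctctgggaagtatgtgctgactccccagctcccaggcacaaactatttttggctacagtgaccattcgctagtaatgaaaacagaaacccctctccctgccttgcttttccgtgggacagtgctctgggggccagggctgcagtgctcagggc
The first window held 31 CpG dinucleotides and the second 4, against a median of 7 over 32851 RefSeq promoter windows. A GC box stood in both, as in 35.7% of all windows, and an AP-1 match (7.81% of all windows) only in the second. The counts are per gene and do not say which start was used in which tissue.

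Scaling by library size alone shifted the median over all genes by -0.73 and left Ksr1 at 1.18. Of the RAF kinase genes whose products it binds, Araf was at 0.20 and Braf at -0.13 on the log2 scale, neither past the threshold, and that scaling turned Araf to -0.56. Ksr2, the paralog of Ksr1, had at most 23 counts in any library and was not tested.

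Cnksr1 (ENSMUSG00000028841, minus strand of chromosome 4 from 134228041 to 134238399), the connector enhancer of KSR, was at 80.5, 87.2, 58.5 and 70.6 CPM in SI1 to SI4 and at 17.2, 42.1, 42.9 and 31.3 CPM in COL1 to COL4. The lowest SI library lay above the highest COL library. Its log2 fold change was 1.153 (standard error 0.31, edgeR q = 0.0174) and ranged from 0.45 in mouse 3 to 2.23 in mouse 1. Within the libraries of low mitochondrial share the log2 fold change was 1.01 (edgeR q = 0.0201), and within those of high share 1.21 (edgeR q = 0.129). Scaling by library size alone left Cnksr1 at 0.45 with edgeR q = 0.242. Of its paralogs, Cnksr3 lay toward COL, at 11.8 ± 3.31 CPM (SD, n = 4) in SI against 20.3 ± 5.32 CPM in COL (log2 fold change -0.77, edgeR q = 0.0796). Cnksr2 had at most 31 counts and was not tested.

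The IQGAP proteins are large actin- and calmodulin-binding scaffolds, and IQGAP1 binds BRAF, MEK and ERK. Iqgap2 (ENSMUSG00000021676, minus strand of chromosome 13 from 95627177 to 95891922) was at 452.8, 458.4, 447.6 and 461.3 CPM in SI1 to SI4 and at 101.7, 160.4, 127.1 and 109.3 CPM in COL1 to COL4. The SI libraries differed by a coefficient of variation of 1.34% among themselves, and the ranges of the tissues did not overlap. The log2 fold change of 1.87 (standard error 0.30, 95% interval 1.22 to 2.52) gave edgeR q = 0.000726 and lay between 1.51 and 2.15 in the 4 mice. Iqgap2 was the one gene of the 10 that was called in all 20 alternative fits, including the 4 libraries of low (1.94) and the 4 of high (1.70) mitochondrial share alone.

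Iqgap1 (ENSMUSG00000030536, minus strand of chromosome 7 from 80711583 to 80825974) was at 357.8, 371.2, 338.8 and 358.3 CPM in SI1 to SI4 and at 291.8, 307.9, 401.2 and 431.0 CPM in COL1 to COL4. The SI values fell inside the range of the COL values. Iqgap1 had a log2 fold change of -0.01 with a 95% interval from -0.65 to 0.64 (edgeR q = 0.991), positive in 2 of the 4 mice, and scaling by library size alone moved it to -0.77, or 0.06 above the median of all genes under that scaling. Iqgap3, at 11.05 ± 7.65 CPM in SI against 18.1 ± 7.24 CPM in COL, was not past the threshold (edgeR q = 0.377).

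The balance of the paralogs followed from these values. The ratio of Iqgap1 to Iqgap2 in counts per kilobase was 0.276, 0.283, 0.264 and 0.271 in SI1 to SI4, against 1.00, 0.670, 1.101 and 1.38 in COL1 to COL4. Iqgap2 thus exceeded Iqgap1 per length in each SI library, and the COL ratios lay on both sides of 1. Dividing by the longest transcript instead of all exon bases put Iqgap1 at 48.1 and Iqgap2 at 21.6 CPM per kilobase in COL, and at 47.9 and 78.8 in SI. The difference of -1.88 on the log2 scale did not overlap between tissues (two-sided exact permutation test, p = 0.0286, the lowest value possible with 4 libraries in each tissue, adjusted to p = 0.0571 over the 6 ratios computed, of which 3 are given, and not past the threshold).

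The promoter windows of both paralogs are shown because one paralog was called and the other was not, with capitals as above.
Iqgap2, chr13:95891873-95892172, minus strand: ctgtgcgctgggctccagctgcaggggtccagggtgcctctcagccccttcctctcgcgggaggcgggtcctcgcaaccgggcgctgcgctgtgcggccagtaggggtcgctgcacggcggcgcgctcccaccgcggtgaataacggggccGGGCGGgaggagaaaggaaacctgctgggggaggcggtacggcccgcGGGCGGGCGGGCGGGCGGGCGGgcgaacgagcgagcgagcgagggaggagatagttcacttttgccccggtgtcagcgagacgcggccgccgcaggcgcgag
Iqgap1, chr7:80803282-80803581, minus strand: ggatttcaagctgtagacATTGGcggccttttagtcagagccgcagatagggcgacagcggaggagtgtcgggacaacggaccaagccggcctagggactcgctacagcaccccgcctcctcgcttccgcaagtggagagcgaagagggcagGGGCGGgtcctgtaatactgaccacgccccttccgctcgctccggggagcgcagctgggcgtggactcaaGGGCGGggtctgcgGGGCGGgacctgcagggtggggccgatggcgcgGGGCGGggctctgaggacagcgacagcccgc
The Iqgap2 window held 41 CpG dinucleotides, as many as or more than 97.0% of the windows, and 6 GC box matches, 5 of which overlap in 1 run. The Iqgap1 window held 28 CpG dinucleotides, as many as or more than 87.1% of the windows, 4 GC box matches and a CCAAT box. It lies inside the gene span given above for Iqgap1 and not at the upstream end of that span. Neither window, nor any other of the 9 windows of 7 of the 10 genes in the RefSeq table, contained the letters searched for a TATA box (TATAAA, in 13.6% of all windows), a GATA site (AGATAA, 11.2%), a CDX site (TTTATNG, 10.9%), an HNF4 site (CAAAGTCCA, 0.475%) or an HNF1 site (0.0609%). Arrb1, Arrb2 and Lamtor3 had no match in this table.

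**Figure D2:**
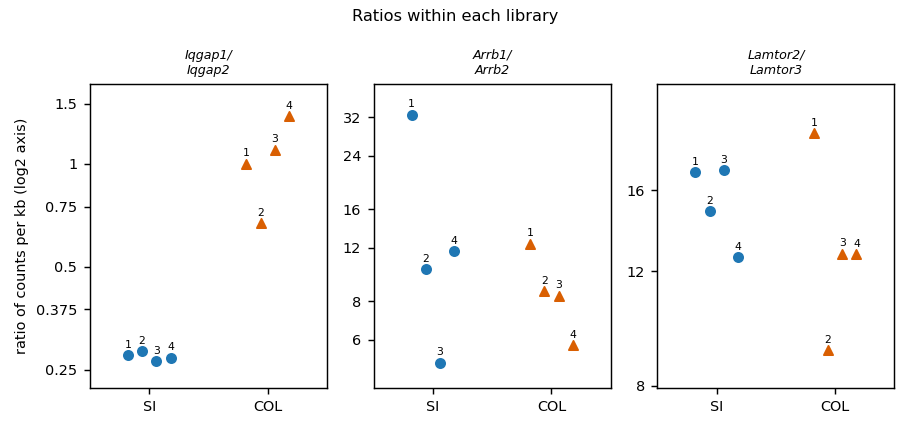
Ratios of counts per kilobase of exon within each library, on log2 axes of differing range, for 3 pairs of genes, SI as circles and COL as triangles with replicate numbers. The ratio of Iqgap1 to Iqgap2 did not overlap between SI and COL, and the other 2 ratios did.

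The beta-arrestins desensitize G protein-coupled receptors and can assemble RAF, MEK and ERK on them. Arrb1 (ENSMUSG00000018909, plus strand of chromosome 7 from 99535466 to 99606771) was at 162.9, 70.5, 33.2 and 78.0 CPM in SI1 to SI4 and at 38.5, 25.4, 38.7 and 32.8 CPM in COL1 to COL4. SI3 lay inside the COL range and SI1 well above the other SI libraries. The log2 fold change of 1.35 (standard error 0.42) gave edgeR q = 0.0318, and it was positive in 3 of the 4 mice. A block for the donor mouse gave 1.16 in edgeR and lost the call (q = 0.0527). Limma-voom with that block gave 1.103 and kept the call (adjusted p = 0.0371). Limma-voom without the block gave 1.14 and did not call Arrb1 (adjusted p = 0.0501). In edgeR the call was also lost without SI1, where the difference was 0.83 (edgeR q = 0.106). The same held without SI4, COL1, COL2, COL3 or COL4, where edgeR q was 0.0525 to 0.0678. Scaling by library size alone gave 0.55 (edgeR q = 0.308). The difference was 1.74 (edgeR q = 0.0209) within the libraries of low and 0.59 (edgeR q = 0.442) within those of high mitochondrial share.

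Arrb2 (ENSMUSG00000060216, plus strand of chromosome 11 from 70432635 to 70440828) rested on 28 to 37 counts per SI and 12 to 69 counts per COL library. It was at 1.597 ± 0.22 CPM (SD, n = 4) in SI against 1.04 ± 0.33 CPM in COL, higher in SI in all 4 mice but with overlapping ranges. Its log2 fold change of 0.61 (95% interval -0.52 to 1.73, edgeR q = 0.409) turned to -0.16 with scaling by library size alone. Arrb1 exceeded Arrb2 per length in every library, by 5.05- to 32.7-fold in SI and 5.77- to 12.4-fold in COL, and this ratio did not part the tissues (two-sided exact permutation test, p = 0.486, adjusted p = 0.486 over the 6 ratios).

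LAMTOR2 and LAMTOR3 form a heterodimer within the Ragulator complex of late endosomes and lysosomes. Lamtor2 (ENSMUSG00000028062, minus strand of chromosome 3 from 88549819 to 88553074) was at 177.3, 100.1, 116.0 and 135.4 CPM in SI1 to SI4 and at 98.6, 47.9, 138.8 and 126.9 CPM in COL1 to COL4. Lamtor3 (ENSMUSG00000091512, plus strand of chromosome 3 from 137918506 to 137928900) was at 35.4, 22.96, 23.02 and 36.6 CPM in SI and at 17.1, 17.96, 37.0 and 33.9 CPM in COL. In both genes the tissues overlapped and COL3 and COL4 were above COL1 and COL2. The log2 fold changes of 0.36 for Lamtor2 (95% interval -0.42 to 1.14, edgeR q = 0.488) and 0.15 for Lamtor3 (95% interval -0.56 to 0.87, edgeR q = 0.765) turned to -0.45 and -0.62 with scaling by library size alone. Per length, Lamtor2 exceeded Lamtor3 by 12.6- to 17.2-fold in SI and 9.08- to 19.6-fold in COL, and an exact permutation test of this ratio missed the threshold (two-sided, p = 0.371, adjusted p = 0.446).

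Lamtor1, Lamtor4 and Lamtor5, which code for the rest of Ragulator, were not past the threshold, with log2 fold changes of -0.13, 0.06 and 0.21 and edgeR q from 0.679 to 0.896. Among the Rag GTPases that Ragulator binds, Rraga and Rragc were not past the threshold either, whereas Rragd was at 57.2 ± 8.62 CPM (SD, n = 4) in SI against 0.685 ± 0.288 CPM in COL. Its log2 fold change was 6.42 (standard error 0.40, edgeR q = 5.92e-06).

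Shoc2 (ENSMUSG00000024976, plus strand of chromosome 19 from 53944306 to 54033133), the leucine-rich repeat activator of RAF, was at 89.9, 78.8, 71.3 and 94.5 CPM in SI1 to SI4 and at 34.7, 57.6, 52.0 and 40.2 CPM in COL1 to COL4. The tissues did not overlap. Shoc2 had a log2 fold change of 0.86 (standard error 0.25, 95% interval 0.30 to 1.42, edgeR q = 0.0260), and it was 1.37, 0.45, 0.45 and 1.23 in mice 1, 2, 3 and 5. Blocking on the donor mouse gave 0.88 and edgeR q = 0.0503, past the threshold no longer, and 0.87 with an adjusted p of 0.0359 by limma-voom, which kept the call. Leaving out SI1, SI4, COL1 or COL4 gave 0.82, 0.77, 0.74 or 0.80 and edgeR q = 0.0663, 0.0936, 0.0719 or 0.0733, so that Shoc2 was no longer called. The call was also lost without a filter on low counts (edgeR q = 0.147) and with scaling by library size alone (0.14, edgeR q = 0.656). Its difference was 0.99 (edgeR q = 0.0161) within the libraries of low and 0.61 (edgeR q = 0.346) within those of high mitochondrial share.

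Of the SHOC2 partners, Mras had at most 56 counts in any library and a log2 fold change of -1.03 (edgeR q = 0.272). The PP1 catalytic genes Ppp1ca, Ppp1cb and Ppp1cc were not past the threshold, at -0.15, -0.48 and 0.12. Erbin, whose product binds SHOC2 and dampens RAF activation, was at 157.7 ± 18.7 CPM (SD, n = 4) in SI against 117.7 ± 34.6 CPM in COL and was not past the threshold. Scaling by library size alone gave -0.63 for Ppp1cc and -0.27 for Erbin.

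Pebp1 (ENSMUSG00000032959, minus strand of chromosome 5 from 117282654 to 117287625), the inhibitor among the 10, was at 35.1, 50.4, 73.2 and 59.0 CPM in SI1 to SI4 and at 88.6, 46.0, 124.7 and 127.3 CPM in COL1 to COL4. COL2 lay inside the SI range, and COL1, COL3 and COL4 lay above it. The log2 fold change of -0.83 (standard error 0.36, 95% interval -1.62 to -0.04) had an unadjusted p of 0.0408 and edgeR q = 0.108. SI was lower in mice 1, 3 and 5 (-1.33, -0.77 and -1.11 on the log2 scale) and not in mouse 2 (0.13). Without COL2 it was -1.05 (edgeR q = 0.0193), within the libraries of low mitochondrial share -1.43 (edgeR q = 0.0173) and within those of high share -0.22 (edgeR q = 0.787). Gm10819 or Gm9824 share 34.2% of the 50-base stretches of the longest Pebp1 transcript, so part of its reads may have been left out or counted there.

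**Figure D3:**
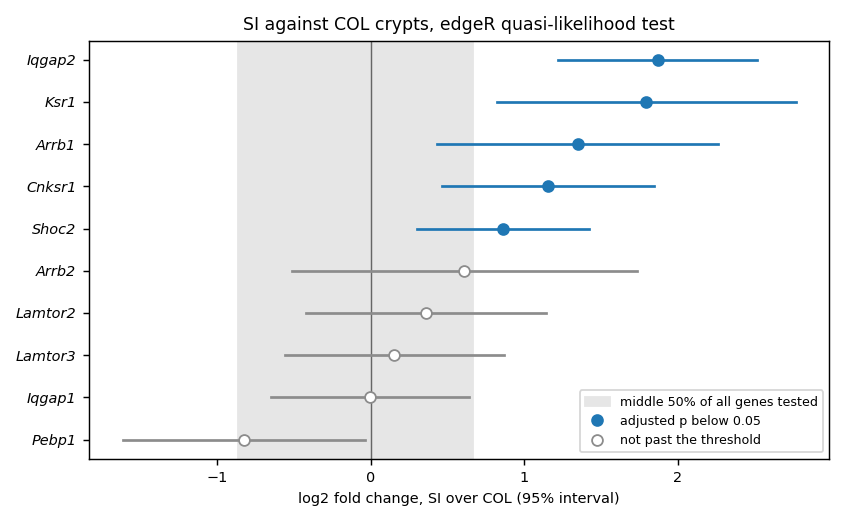
Log2 fold change of SI over COL for each of the 10 genes (points) with its 95% interval (lines), filled where the adjusted p is below 0.05, against the middle 50% of all genes tested (grey, -0.87 to 0.66). The 5 filled points lie to the right of the grey band, at 0.86 to 1.87, and the point of Pebp1 is the only one well to the left of 0.

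The 10 genes were refitted under 20 alternatives, among them other tools, filters and scalings and each left-out library. Iqgap2 was past the threshold in 20 of these fits, Ksr1 in 19, Cnksr1 in 18, Shoc2 in 12, Arrb1 in 10 and Pebp1 in 4. Arrb2, Lamtor2, Lamtor3 and Iqgap1 were past it in 0 of the 20. Relative to the median of all genes, scaling by library size alone left Ksr1 2.00, Iqgap2 1.98, Arrb1 1.37, Cnksr1 1.27 and Shoc2 0.97 above it and Pebp1 0.79 below it (-0.79).

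**Figure D4:**
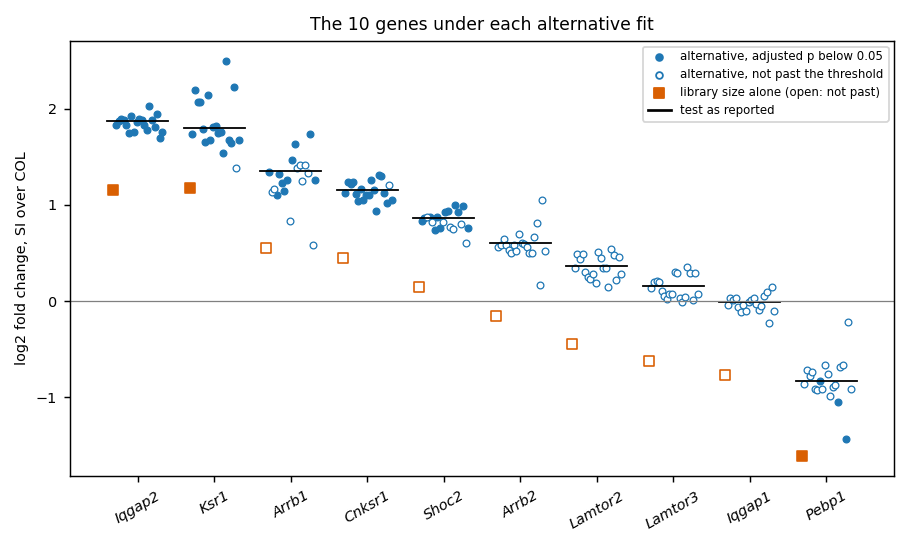
Log2 fold change of SI over COL for each of the 10 genes under 20 alternative fits (points and squares) and in the test as reported (black lines), filled where the adjusted p was below 0.05. All fits of Iqgap2 are filled, and the squares, which stand for scaling by library size alone, lie below the line for every gene.

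Levels can be compared between the genes only per length. In CPM per kilobase of exon, the order in SI was Lamtor2 (108.6 ± 27.4), Iqgap2 (78.8 ± 1.06), Pebp1 (30.8 ± 9.02), Cnksr1 (26.5 ± 4.46), Iqgap1 (21.6 ± 0.81), Shoc2 (14.99 ± 1.89), Arrb1 (7.71 ± 4.91), Lamtor3 (7.10 ± 1.81), Ksr1 (4.80 ± 0.32) and Arrb2 (0.561 ± 0.078) (SD, n = 4). Neighbours whose libraries overlapped were Pebp1 and Cnksr1, Cnksr1 and Iqgap1, Shoc2 and Arrb1, and Arrb1 and Lamtor3. In COL it was Lamtor2 (84.6 ± 33.2), Pebp1 (54.7 ± 21.5), Iqgap1 (21.6 ± 4.14), Iqgap2 (21.6 ± 4.52), Cnksr1 (11.9 ± 4.29), Shoc2 (8.27 ± 1.89), Lamtor3 (6.39 ± 2.51), Arrb1 (3.03 ± 0.56), Ksr1 (1.39 ± 1.09) and Arrb2 (0.366 ± 0.117). Here all neighbours overlapped other than Iqgap2 and Cnksr1, Lamtor3 and Arrb1, and Ksr1 and Arrb2. Lamtor2 led and Arrb2 closed the order in both tissues, and Iqgap2 was next to Iqgap1 in COL but at rank 2 in SI. Dividing by the longest transcript instead moved Iqgap1 from rank 5 to rank 3 in SI, at 47.9 CPM per kilobase, and left the order in COL as it was.

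The labels give the sex of each mouse, so whether the tissue difference depended on it was tested by an interaction term. None of the 10 was past the threshold, with adjusted p-values of 0.909 or more and unadjusted p-values of 0.0986 or more by edgeR's quasi-likelihood test. Over all genes, 0 (0%) were called by edgeR, limma-voom and edgeR with the donor block alike, and 761 (5.25%) had an unadjusted p below 0.05. The mean difference of Ksr1 was 2.60 on the log2 scale in female and 1.48 in male mice, with COL2 being from a male. There were 2 mice per sex. Both male SI libraries were of high and both female SI libraries of low mitochondrial share. Sex and share thus cannot be told apart in SI.

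Genes with a pattern like that of Ksr1 and Iqgap2 were looked up by Pearson's r of log2 CPM over the 8 libraries, among 7811 genes with a mean log2 CPM of at least 3. For Ksr1 these were Pmaip1, Phlpp2, Fgd4, Spint1 and Ptpn21, with r from 0.983 to 0.987. For Iqgap2 they were Cobl, Jak2, Abcg5, Gm8909 and Slc23a1, with r of 0.996 or 0.997. The 8 points share tissue and donor, and no p is given. Mean levels were 315 CPM (SI) and 42.8 CPM (COL) for Cobl and 153 and 1.22 CPM for Slc23a1, a direction that the choice by likeness to Iqgap2 fixes.

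The wider pathway was read from 3 lists. Of 38 relatives and partners of the 10 genes, 35 were tested and 5 called, 3 higher in SI and 2 higher in COL, a share of 14.3% against 28.4% of all genes, with a median log2 fold change of 0.06. Higher in SI were Rragd, the 14-3-3 gene Ywhah (109.8 ± 13.3 CPM in SI, 63.6 ± 10.9 CPM in COL) and the docking protein gene Gab1 (18.4 ± 3.33 and 10.7 ± 0.95 CPM). Higher in COL were Grk6 (8.03 ± 2.58 CPM in SI, 28.0 ± 5.13 CPM in COL), a receptor kinase whose substrates beta-arrestins bind, and Pea15a (4.31 ± 1.47 and 12.4 ± 3.86 CPM), which holds ERK in the cytoplasm. Ywhah and Gab1 were not past the threshold with the donor mouse as a block (edgeR q = 0.0563 and 0.0788). Ksr2, Cnksr2 and Paqr3, with at most 31 counts in any library, were not tested.

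The core cascade list held 19 genes from the receptor Egfr to the ERK-activated Rps6ka kinases. Of these, 3 were called (15.8%, against 28.4% of all genes), 2 of them toward SI and 1 toward COL. The RAS exchange factor gene Sos2 was higher in SI (0.97) and Rps6ka3 was higher in COL (-0.83). The list had a median log2 fold change of 0.16.

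Of 19 ERK target genes, 9 were called (47.4%, against 28.4% of all genes), 4 higher in SI and 5 higher in COL. The called genes thus had no single direction. Epha2 (42.7 ± 10.9 CPM in SI, 7.18 ± 2.63 CPM in COL), Dusp6, Fos and Dusp5 were higher in SI. Etv5 (0.894 ± 0.587 and 29.8 ± 11.7 CPM), Etv4, Epha4, Fosl1 and Spred1 were higher in COL. The median of the list was -0.86. Several of these targets were picked by the study from the same libraries and are no independent evidence of a direction. For DUSP6 the study also gives Western blots, with the highest level in proximal SI.

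**Figure D5:**
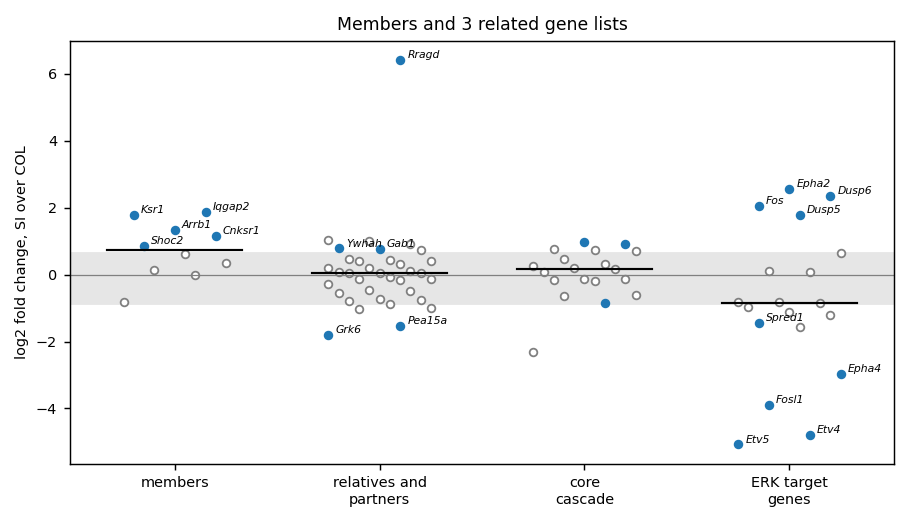
Log2 fold change of SI over COL for the 10 genes and 3 related lists, filled where the adjusted p was below 0.05 and then named in all lists but the core cascade, with the list median as a black line and the middle 50% of all genes tested in grey. The 5 called genes of the 10 all lie above 0, while the called ERK target genes lie on both sides, from Etv5 to Epha2.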

How the data were processed

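RNA-Seq counts of 8 crypt libraries, 4 SI and 4 COL from 4 mice, were grouped by the labels. The authors deposited raw read counts per Ensembl gene. Trimmomatic 0.36 and STAR 2.5.2b are named in the submitters' processing notes, which list both mm9 and mm10, and the study's methods name mm10. The annotation release and the use of strand are not given in the sources used here. Without strand, reads over an antisense gene (186 exon bases of Ksr1, 145 of Iqgap1, 97 of Shoc2) could not be told apart. Of 45706 identifiers, 45143 matched GENCODE vM21 (GRCm38), the source of symbols, coordinates and exon lengths, and RefSeq gave the promoters.

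Counts were tested with edgeR 4.0.16 in R 4.3.3 (quasi-likelihood, TMM, filterByExpr with a minimum count of 10), adjusted over the 14491 genes tested with a threshold of 0.05. Limma 3.58.1, the tool of the study's methods, and DESeq2 1.42.0 were alternatives, as were library-size scaling, filters, the donor block, the mitochondrial share as covariate and each left-out library. Chosen after seeing the data were fits without mitochondrial genes and with the libraries of low or high mitochondrial share alone. Within-mouse differences used a prior count of 2 and those by sex an offset of 0.1 CPM. Permutation tests (SciPy 1.17.1) were exact over 70 assignments. The edgeR fits with and without the block, limma-voom without it and DESeq2 were tested on simulated data. These had a dispersion of 0.05, below the common dispersion of 0.245 of the libraries, and no donor effect. The simulation therefore does not show how the fits do at the noise of these data.

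Donor numbers in the labels pair the libraries. The 2 libraries of a donor had deviations that correlated at -0.24 (mouse 1), 0.39 (mouse 2), -0.08 (mouse 3) and 0.33 (mouse 5). Replicates differed by more than sampling noise (chi-square per gene of at least 86.5). The 10 genes and all lists were chosen with earlier results of these data known. Genes named were the 10, their paralogs, called list genes (up to 5 per direction) and the 5 most like Ksr1 and Iqgap2, and the partners Rraga, Rragc, Mras, Erbin, Araf, Braf and the PP1 genes were added after their values were seen. Some results are not reported here. Totals ran from 15969428 to 32908060 counts.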

Additional observations from a re-analysis of the deposited data

Results flagged for a closer look

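Among 26 sets of 4 values checked (the 10 genes and 3 ratios in each tissue), 1 held a value far from the rest by Dixon's criterion, which chance alone meets in about 1 of 20 sets. Arrb2 was at 1.27 CPM in SI1, below the other SI libraries.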

How the results depend on the processing

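Iqgap2 kept its direction and its call under every alternative. Scaling by library size alone called 1115 genes for SI and 4788 for COL, against 2253 and 1863. It called 2 of the 10 genes for SI and 1 for COL, 1 and 9 of the relatives and partners, 0 and 7 of the core cascade, and 10 ERK targets higher in COL. It turned Arrb2 to -0.16, Lamtor2 to -0.45 and Lamtor3 to -0.62. With the replicate block on the donor mouse, edgeR called 2221 genes for SI and 1851 for COL. Higher in SI were 3 of the 10 and 1 relative or partner. Limma-voom with that block called 2536 and 2171 genes, and 4 of the core cascade higher in SI. DESeq2 called 2552 genes for SI and 2569 for COL, with 4 relatives and 2 core genes higher in COL. Limma-voom called 2517 and 2174 genes, with 8 ERK targets higher in COL. Iqgap1 was at 0.032 by limma-voom, 0.013 with the block in edgeR and 0.034 with it in limma-voom. Without a filter, 2143 of 33110 genes were called for SI and 2380 for COL. Among them were 1 relative higher in SI and 0 core genes in either direction. Asking for 10 counts in every library called 1808 of 10765 genes for SI and 1433 for COL. Higher in COL were then 4 relatives and 2 ERK targets. With the mitochondrial share as covariate, 3108 genes were called for SI and 2349 for COL. Of the 10, 1 (Pebp1) was then called higher in COL. That fit called 5 and 6 relatives and 5 and 2 core genes higher in SI and COL. Leaving out genes over 1% of a library called 2055 genes for SI and 2178 for COL, and leaving out mitochondrial genes 2062 and 2176. Both called 1 and 4 relatives and 1 core gene (higher in SI). With the low-share libraries alone, 2724 genes were called for SI and 2543 for COL. Higher in COL were 1 of the 10, 4 relatives and 0 core genes, while 5 core genes were higher in SI. With the high-share libraries alone, 1406 genes were called for SI and 986 for COL, 1 of the 10 higher in SI, 1 and 1 relatives, 0 and 0 core genes and 2 ERK targets higher in COL, and Iqgap1 was at 0.15. The causes were not tested.

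Leaving out 1 library called 1712 to 2354 genes for SI and 1424 to 2038 for COL. Of the 10 genes, 3 to 5 were higher in SI and 0 to 1 higher in COL. There were 1 to 4 relatives higher in SI, and 0 to 3 core genes higher in SI and 0 to 1 higher in COL. Iqgap1 ranged from -0.092 to 0.096, Lamtor3 from -0.0084 to 0.36 and the log2 difference of the Arrb1/Arrb2 ratio from -0.0036 to 0.90. Depth limits Arrb2, with 12 to 69 counts per library.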

Other observations

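Cell type markers that belong to no comparison above also differed in level between the libraries. The 7 goblet cell markers, led by the mucin gene Muc2, summed to 2866 to 10946 CPM in SI and 12761 to 24152 CPM in COL, with 3 of 7 called higher in COL. The 8 proliferation markers summed to 104 to 498 CPM in SI and 365 to 633 CPM in COL, with 0 of 8 called. The 6 markers of crypt base stem cells, led by Olfm4, summed to 60.9 to 361 CPM in SI and 71.1 to 86.6 CPM in COL. Of these, 1 of 6 was called higher in SI.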
